A study of Mus musculus with 8 samples.

Results

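Cell cycle and DNA replication genes were followed in crypts of the mouse small intestine (SI) and colon (COL). The set holds 43 genes named by symbol, of 45706 genes in the deposited tables. Each symbol matched 1 Ensembl identifier. Of the 43 members, 23 act mainly in mitosis and 20 act mainly in S phase, when the genome is copied. All 43 passed the filter on low counts, as did 14491 genes in all.

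The study asked how the resting state of SI and COL crypts differs before any oncogene is switched on. RNA was taken from freshly isolated crypts of wild type C57BL/6N mice with no treatment, and each of 4 donor mice gave 1 SI and 1 COL library. Mice 1 and 4 were female and mice 2 and 3 were male, and mouse 4 is donor mouse 5 in the labels. The age of the mice is not given in the sources used here. Libraries are called SI1 to SI4 and COL1 to COL4 by replicate number. A crypt preparation is a mixture, holding stem cells, dividing progenitors, maturing cells and, in SI, Paneth cells, together with whatever villus or immune cells come along.

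In the gut lining, stem cells at the crypt base and the transit-amplifying cells above them divide rapidly, and cells leave the cycle as they move toward the surface. Genes needed in S phase are switched on mainly by E2F factors once the retinoblastoma protein releases them. Genes needed in mitosis rise later, through MuvB complexes with B-Myb and FoxM1, which act at a promoter element called CHR, often beside CCAAT boxes bound by NF-Y. Bulk RNA levels of both groups are therefore widely used to gauge how much of a tissue is cycling.

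These promoter elements were looked up in the members, to show how the mitotic and S-phase groups differ in sequence. RefSeq (GRCm38.p6) gave a promoter for 36 of the members, as a window of 300 bases, with 250 before and 50 after the start of the gene. The words searched on both strands were TTTGAA and TTCGAA for CHR, CCAAT for the CCAAT box, and TTTGGCGC, TTTCGCGC, TTTCCCGC and TTTGCCGC for E2F. Some of these words can overlap each other in a sequence. Shown are the 250 bases before the start in the 4 mitotic members with the largest difference between the tissues among those with a promoter holding a motif. Capitals mark CHR and CCAAT words on either strand, and adjoining capitals in Ube2c are 2 CCAAT words that overlap. The windows are Plk1 at chr7:122159185-122159434 on the plus strand, Cdc20 at chr4:118437344-118437593 on the minus strand, Ccnb1 at chr13:100786487-100786736 on the minus strand and Ube2c at chr2:164769679-164769928 on the plus strand.
Plk1: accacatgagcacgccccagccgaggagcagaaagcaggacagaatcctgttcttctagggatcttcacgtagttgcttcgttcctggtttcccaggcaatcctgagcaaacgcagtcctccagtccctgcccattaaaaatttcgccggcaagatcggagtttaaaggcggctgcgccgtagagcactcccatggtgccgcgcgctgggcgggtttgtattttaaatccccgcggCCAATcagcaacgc
Cdc20: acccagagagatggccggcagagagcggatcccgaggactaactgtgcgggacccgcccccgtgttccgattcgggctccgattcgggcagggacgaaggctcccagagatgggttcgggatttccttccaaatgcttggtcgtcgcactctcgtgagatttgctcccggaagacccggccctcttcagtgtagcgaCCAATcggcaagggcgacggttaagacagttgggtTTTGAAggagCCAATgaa
Ccnb1: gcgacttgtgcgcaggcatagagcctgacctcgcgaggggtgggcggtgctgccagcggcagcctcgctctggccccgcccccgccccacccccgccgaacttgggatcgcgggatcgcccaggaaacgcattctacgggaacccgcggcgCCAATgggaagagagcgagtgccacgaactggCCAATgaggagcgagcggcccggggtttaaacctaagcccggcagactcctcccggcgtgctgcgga
Ube2c: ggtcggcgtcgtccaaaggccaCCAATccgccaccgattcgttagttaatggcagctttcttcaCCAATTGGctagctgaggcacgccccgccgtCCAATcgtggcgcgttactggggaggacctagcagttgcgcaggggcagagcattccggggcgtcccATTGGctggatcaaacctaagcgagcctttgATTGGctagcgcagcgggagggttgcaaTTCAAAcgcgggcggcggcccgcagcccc
Plk1 had 1 CCAAT word, ending 10 bases before the start, and its CHR word lay after the start, outside the printed stretch. Cdc20 had a CHR word ending 13 bases before the start, between 2 CCAAT words. Ube2c had a CHR word ending 24 bases before the start and 6 CCAAT words further upstream. Ccnb1 had 2 CCAAT words and no CHR word of this spelling in the window.

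CHR words were found in 15 of the 19 mitotic members with a promoter (78.9%), in 3 of the 17 S-phase members (17.6%) and in 19.4% of all 27025 promoters. CCAAT words were found in 84.2% of the mitotic members, in 58.8% of the S-phase members and in 37.9% of all promoters. E2F words had the reverse order, with 5.26% of the mitotic members, 41.2% of the S-phase members and 2.32% of all promoters. Among the 10447 promoters of genes tested, the shares were 14.2% for CHR, 38.8% for CCAAT and 4.00% for E2F words. The S-phase promoters with an E2F word were those of Mcm3, Mcm5, Mcm6, Mcm7, Cdt1, Cdc6 and Hells, and the mitotic one was that of Cdk1. A match is a description of the letters and not evidence that a factor binds there, and the words are short enough to occur by themselves in many promoters.

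**Figure D1:**
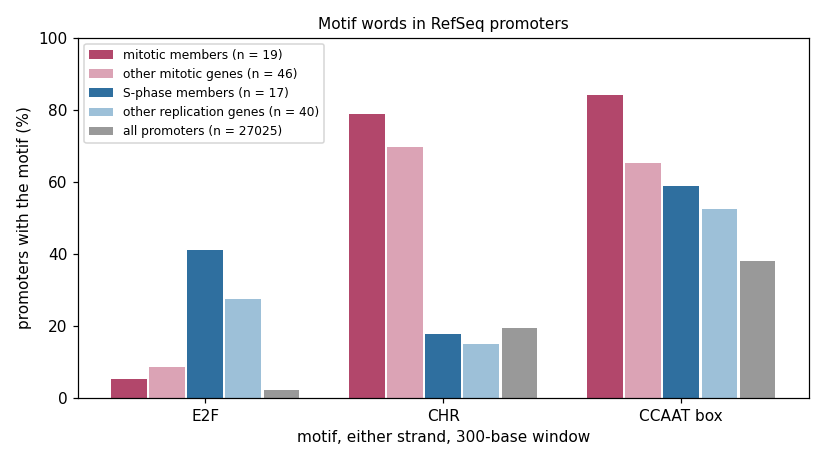
Share of RefSeq promoters (y axis, percent) that hold an E2F, CHR or CCAAT word on either strand in the 300-base window, for the mitotic and S-phase members, 2 further lists of mitotic and replication genes, and all 27025 promoters. The CHR bars stand at 78.9% for mitotic members and 17.6% for S-phase members, and the E2F bars at 5.26% and 41.2%.

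Before the comparison, 3 facts of the libraries that touch every value must be given. Total counts ranged from 15969428 (COL2) to 32908060 (COL4). Mitochondrially encoded genes made up 22.7 to 50.8% of the total in COL1, COL2, SI2 and SI3 but 4.83 to 7.35% in the other libraries, so among SI libraries this share cannot be told apart from the sex of the mouse. Levels are given as counts per 1000000 (CPM) after scaling by TMM, a method that assumes most genes do not differ, and TMM moved SI libraries by factors of 0.727 to 0.798 and COL libraries by factors of 1.01 to 1.45.

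SI1 stood apart from the other SI libraries in nearly every member. It was the lowest SI library in 42 of 43 members, against 32.6% of all genes tested. It lay below 0.5 times the lowest other SI library in 39 members (90.7%), against 12.3% of all genes. Summed over the members, SI1 held 212 CPM, the other SI libraries 795 to 1249 CPM, and the COL libraries 957 to 1742 CPM. The median member was 7.99 times higher in the mean of SI2 to SI4 than in SI1, while the median of all genes was 1.05. For Mki67, the proliferation antigen that coats mitotic chromosomes, SI1 held 14.04 CPM and the other SI libraries 68.5 to 178 CPM. Mcm2 was the exception, with 23.6 CPM in SI1 and 19.0 to 25.7 CPM in the others. Pcna, the sliding clamp of the replication fork, was also nearly level across SI, at 33.3 CPM in SI1 and 35.6 to 50.4 CPM in the others.

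Markers of crypt base cells were low in SI1 together with the cell cycle genes. The 5 stem cell markers summed to 30.7 CPM in SI1 and 217 to 310 CPM in SI2 to SI4, and Ascl2, a defining stem cell factor, was at 0 there. The 5 Paneth cell markers summed to 556 CPM in SI1 and to 1668 to 3864 CPM in SI2 to SI4. The 10 absorptive cell markers had their highest sum in SI1, 66320 CPM against 33320 to 54490 CPM, as did the 6 T cell markers, 289 CPM against 76.6 to 187 CPM, although Cd2 was at 0 in it. All 6 epithelial markers were at or above the lowest of the other SI libraries. The part of these cells in the low member levels was not tested. In bulk RNA of this kind, fewer dividing cells and less RNA per dividing cell cannot be told apart. Because of SI1, the medians, the call of Plk1 and the log2 fold changes of the members given library by library are also stated without it.

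**Figure D2:**
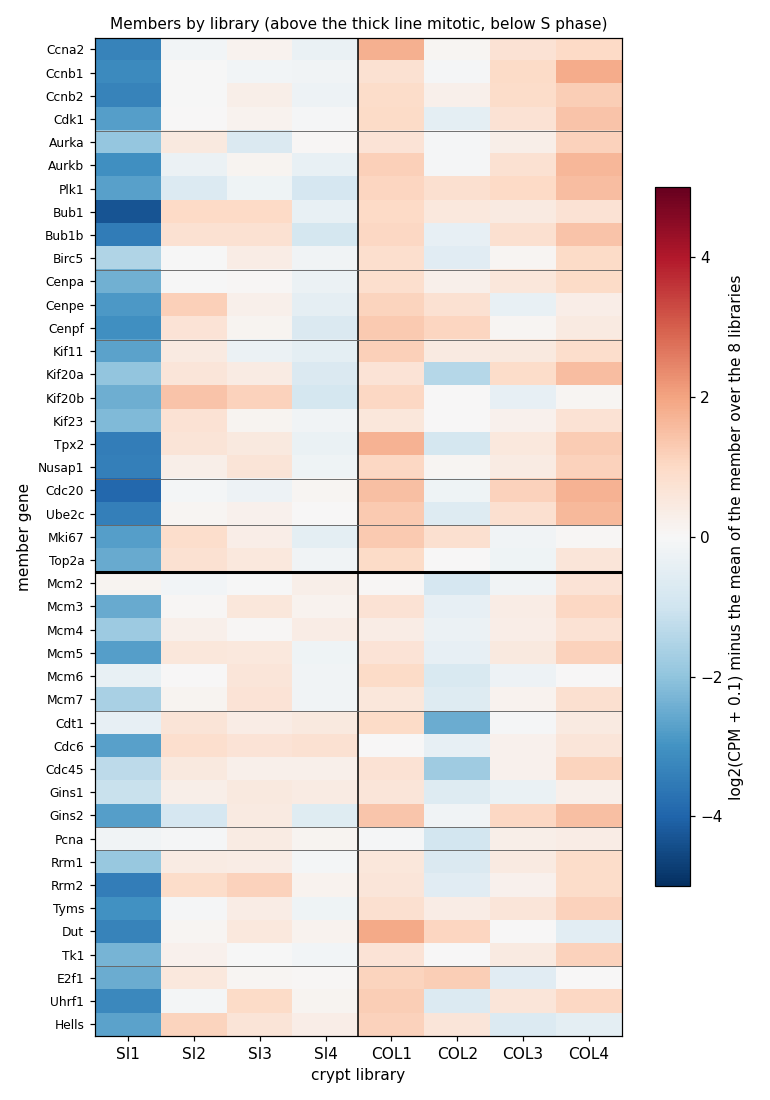
Level of each member (rows, mitotic above the thick line, S phase below) in each of the 8 crypt libraries (columns), as log2(CPM + 0.1) minus the mean of that member over the 8 libraries; thin lines part the role groups. The SI1 column is low in 42 of 43 members within SI, with Mcm2 the exception.

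The comparison of SI with COL crypts found higher levels in COL for 1 mitotic member, Plk1, and no call among the 20 S-phase members. Among all genes tested, 28.4% were called at an adjusted p below 0.05 (edgeR, quasi-likelihood test, Benjamini-Hochberg over the 14491 genes), 12.9% as higher in COL and 15.5% as higher in SI. The members, with 1 call in 43, were below that background. With libraries scaled by their totals alone, the calls over all genes were 1115 with SI above and 4788 with COL above, in place of 2253 and 1863, and 13 mitotic and 3 S-phase members were called, all higher in COL. At an unadjusted p below 0.05 stood 7 mitotic members and 1 S-phase member, Gins2, against 39.8% of all genes. DESeq2 called 7 mitotic members, namely Plk1, Ccna2, Ccnb1, Aurkb, Cenpa, Kif11 and Cdc20, and 1 S-phase member, Gins2, all higher in COL. limma-voom called 6 and 1. Over all 14491 genes DESeq2 called 5121 and limma-voom 4691, with 2569 and 2174 of them higher in COL.

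The direction was shared by the mitotic members more than the calls were. The fitted log2 fold change, SI over COL, was below 0 in 22 of 23 mitotic members, in 13 of 20 S-phase members and in 53.4% of all genes. Its median was -1.01 for mitotic members, -0.37 for S-phase members and -0.09 for all genes tested. Without SI1 the medians were -0.61, -0.06 and -0.04, with 21 mitotic and 12 S-phase members below 0, and Plk1 was still the single member called. The SI and COL libraries did not overlap, with COL above, in 3 mitotic members (Plk1, Cenpa and Kif11) and 1 S-phase member (Tyms). Among all genes, 15.7% did not overlap with COL above and 17.8% with SI above, so the 4 of 43 members stood below that background.

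**Figure D3:**
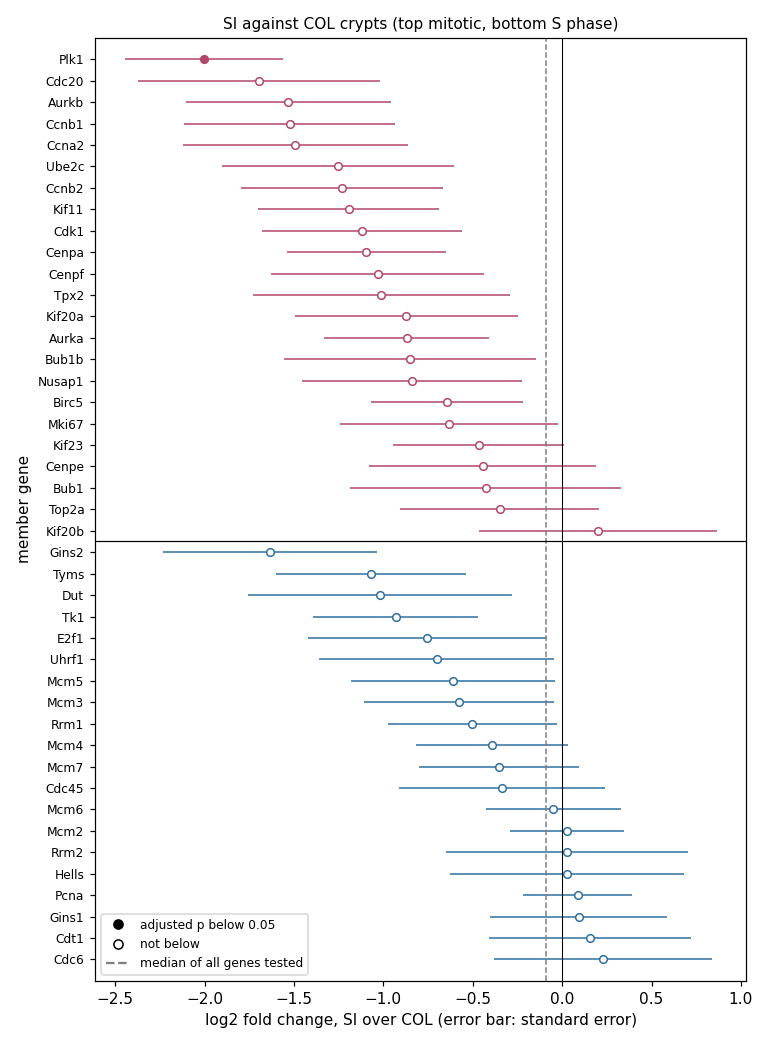
Fitted log2 fold change of SI over COL (x axis) with its standard error for each member (y axis), mitotic members on top and S-phase members below, each ordered by value. Filled points have an adjusted p below 0.05, which holds for Plk1 alone, and the dashed line is the median of all genes tested, -0.09.

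Among the mitotic kinases and checkpoint proteins, Plk1 led. It encodes polo-like kinase 1, which drives entry into mitosis and centrosome maturation (chr7, 122159439 to 122169873, plus strand, GENCODE vM21 on GRCm38). Plk1 was at 4.67, 19.6, 26.9 and 17.4 CPM in SI1 to SI4 and at 65.1, 54.9, 63.1 and 91.5 CPM in COL1 to COL4. Every COL library was above every SI library, and COL was higher in each of the 4 mice. SI crypts averaged 17.1 ± 9.26 CPM and COL crypts 68.7 ± 15.9 CPM (SD, n = 4 each), a fitted log2 fold change of -2.004 (SE 0.44, edgeR adjusted p = 0.0058). An exact two-sided permutation test over the 70 assignments of the libraries gave p = 0.0286, the smallest that 4 against 4 allow. The test does not keep the pairing by mouse. Here and below, this p only restates that the tissues did not overlap, which held with COL above for 15.7% of all genes. Without SI1 the log2 fold change was -1.67 (edgeR, adjusted p = 0.0031). Plk1 was called in all 20 alternative analyses as well, with log2 fold changes between -2.81 and -1.44 and adjusted p of at most 0.0392. Another gene's transcript, such as that of the pseudogene Plk-ps1, holds 10.9% of its 50-base stretches.

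The remaining kinases and checkpoint members were Aurka and Aurkb, the Aurora kinases of spindle poles and of the chromosomal passenger complex, Birc5, the survivin subunit of that complex, and Bub1 and Bub1b, which hold back anaphase until chromosomes attach. Their log2 fold changes lay between -1.53 (Aurkb) and -0.43 (Bub1), with no call. Aurkb was at 1.31 to 12.8 CPM in SI and 11.1 to 36.8 CPM in COL, with an adjusted p of 0.067, and it was called by DESeq2 and limma-voom. The kinase list thus had 1 call of 6, with all 6 values below 0.

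The cyclins and their kinase were lower in SI1 than anywhere else and otherwise close in part of the libraries. Ccnb1 encodes cyclin B1, which activates Cdk1 at mitotic entry. It was at 2.04, 19.1, 17.8 and 17.2 CPM in SI1 to SI4 and at 33.4, 18.8, 38.0 and 70.9 CPM in COL1 to COL4. COL2 lay within the SI values, and the other COL libraries were above all of SI. The log2 fold change was -1.52 (SE 0.59, edgeR adjusted p = 0.076). Of its 50-base stretches, 42.1% occur in another gene's transcript, mainly pseudogenes, so its count may be split. Ccna2, Ccnb2 and Cdk1 had log2 fold changes between -1.49 and -1.12, without a call.

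Among centromere proteins, Cenpa, the histone H3 variant that marks centromeres, was at 3.22, 16.9, 17.8 and 14.2 CPM in SI1 to SI4. It was at 31.1, 20.8, 25.7 and 33.8 CPM in COL1 to COL4. The groups did not overlap, and the log2 fold change of -1.095 (SE 0.44) had an adjusted p of 0.087 by edgeR and p = 0.0286 in the exact permutation test. Cenpe, a kinetochore motor, and Cenpf, a large kinetochore protein, overlapped between the tissues, with log2 fold changes of -0.44 and -1.03.

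Kif11, the motor that pushes spindle poles apart, led the group of motors and microtubule binders. It was at 2.13, 19.4, 11.4 and 9.98 CPM in SI1 to SI4 and at 32.3, 19.5, 20.01 and 26.1 CPM in COL1 to COL4. All COL values were above all SI values, though COL2 exceeded SI2 by little. The log2 fold change was -1.19 (SE 0.51, edgeR adjusted p = 0.101, exact permutation p = 0.0286). Kif20b, a kinesin needed to complete cytokinesis, was the only mitotic member with a fitted value above 0. It was at 3.49, 52.0, 42.5 and 10.5 CPM in SI1 to SI4 and at 39.2, 19.7, 14.4 and 20.9 CPM in COL1 to COL4, so that both tissues spanned the other. Its log2 fold change of 0.20 (SE 0.66) turned to -0.56 when libraries were scaled by their totals alone. Kif20a, a kinesin of cytokinesis, shares 31.2% of its stretches with transcripts of Cdc23. The log2 fold changes of Kif20a, Kif23, Tpx2 and Nusap1 lay between -1.01 and -0.47 with no call.

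The 2 members of the anaphase-promoting complex pathway, which degrades cyclins to end mitosis, were Cdc20, its activator, and Ube2c, its ubiquitin-conjugating enzyme. Cdc20 was at 0.498, 8.40, 7.40 and 9.57 CPM in SI1 to SI4 and at 25.7, 7.77, 19.9 and 30.2 CPM in COL1 to COL4. COL2 fell among the SI libraries. The log2 fold change was -1.70 (SE 0.68, edgeR adjusted p = 0.084), and Ube2c was at -1.25 with no call. DESeq2 and limma-voom called Cdc20.

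The chromosome structure members are the ones most used as proliferation markers, and neither was called. Mki67 was at 14.04, 178, 120 and 68.5 CPM in SI1 to SI4 and at 235, 169, 85.2 and 100.9 CPM in COL1 to COL4. SI2 and SI3 were above COL3 and COL4, and the log2 fold change was -0.63 (SE 0.61, edgeR adjusted p = 0.48). Top2a, the topoisomerase that untangles sister chromatids, was at 17.0, 169, 143 and 88.2 CPM in SI1 to SI4. It was at 192, 102, 86.2 and 152 CPM in COL1 to COL4, again with both tissues overlapping. Its log2 fold change was -0.35 (SE 0.56, edgeR adjusted p = 0.68) and 0.02 without SI1.

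Among the S-phase members, the MCM helicase, which unwinds DNA ahead of the replication fork, had log2 fold changes from -0.61 (Mcm5) to 0.03 (Mcm2). Mcm5 was at 3.67, 37.6, 37.4 and 21.98 CPM in SI1 to SI4 and at 40.9, 19.1, 36.4 and 57.0 CPM in COL1 to COL4. Except for SI1, the SI values lay inside the COL range, and the adjusted p was 0.46 by edgeR (SE 0.57). Mcm2 was at 23.6, 19.0, 20.6 and 25.7 CPM in SI1 to SI4 and at 22.003, 11.7, 18.9 and 34.4 CPM in COL1 to COL4, with SI inside the COL range throughout. Its log2 fold change had a standard error of 0.32 and became -0.78 when libraries were scaled by their totals alone. The 6 MCM subunits form 1 ring, yet their drop in SI1 was unequal. The mean of SI2 to SI4 over the level in SI1 was 0.923 for Mcm2 and 1.47 for Mcm6, but 7.24 for Mcm3, 4.24 for Mcm4, 8.8 for Mcm5 and 3.68 for Mcm7.

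Of the licensing and helicase activation members, which load the helicase and start it, Gins2 had the largest difference. The gene encodes a subunit of the GINS complex, a part of the active helicase. Gins2 was at 0.815, 3.32, 8.42 and 3.98 CPM in SI1 to SI4 and at 15.9, 5.28, 12.4 and 17.6 CPM in COL1 to COL4. COL2 was below SI3, and COL was higher in each of the 4 mice. The log2 fold change was -1.63 (SE 0.60, edgeR adjusted p = 0.062). DESeq2 and limma-voom called it. Its exons overlap those of Gse1 on the other strand over 67.3% of their length, and whether the counting used the strand is not stated, so its value is uncertain. Cdt1, Cdc6, Cdc45 and Gins1 lay between -0.34 and 0.23.

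Pcna was at 33.3, 35.6, 50.4 and 40.8 CPM in SI1 to SI4 and at 36.2, 19.8, 46.5 and 48.3 CPM in COL1 to COL4. The tissues overlapped, and the log2 fold change of 0.09 (SE 0.30, edgeR adjusted p = 0.86) became -0.70 when libraries were scaled by their totals alone. Stretches shared with other transcripts, among them a Pcna pseudogene, made up 31.8% of it.

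Tyms, thymidylate synthase, led the members that supply nucleotides. It was at 3.31, 26.6, 36.04 and 24.1 CPM in SI1 to SI4 and at 47.8, 36.1, 42.3 and 62.4 CPM in COL1 to COL4. The tissues did not overlap, but SI3 and COL2 were almost level. The log2 fold change was -1.07 (SE 0.53, edgeR adjusted p = 0.16, exact permutation p = 0.0286). Dut and Tk1, which remove dUTP and salvage thymidine, were at -1.02 and -0.93, while Rrm1 and Rrm2, the subunits of ribonucleotide reductase, were at -0.50 and near 0.

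E2f1, the S-phase transcription factor, had the largest difference among the members of transcription and chromatin, a log2 fold change of -0.75 (SE 0.67, edgeR adjusted p = 0.44). It was at 0.317, 3.20, 2.38 and 2.29 CPM in SI1 to SI4 and at 4.90, 5.28, 1.44 and 2.22 CPM in COL1 to COL4. COL1 and COL2 were the highest, and COL3 was below SI2, SI3 and SI4. Uhrf1, which carries DNA methylation through replication, and Hells, a chromatin remodeller, had no call either.

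Leaving out SI1 brought most of these log2 fold changes nearer to 0. Among the mitotic members they were then -1.15 for Ccnb1, -0.76 for Cenpa, -0.84 for Kif11, -1.29 for Cdc20, -0.25 for Mki67 and 0.58 for Kif20b. Among the S-phase members they were -1.28 for Gins2, -0.69 for Tyms, -0.24 for Mcm5, -0.37 for E2f1, 0.18 for Pcna and 0.01 for Mcm2. None of these 12 was called by edgeR with or without SI1.

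Within each library, mitotic and S-phase members stood in a different proportion in SI and COL. The mean log2(CPM + 0.1) of the mitotic members minus that of the S-phase members was -0.35, 0.67, 0.35 and 0.10 in SI1 to SI4. In COL1 to COL4 it was 0.89, 1.00, 0.86 and 0.98. The means were 0.19 ± 0.43 in SI and 0.93 ± 0.07 in COL (SD, n = 4 each), and the ranges did not overlap with or without SI1. A difference of this kind is taken inside 1 library, so the scaling factor of the library nearly cancels from it. It is a description of lists whose members were chosen, and no test was made. The lists differ in length and promoter sequence, and SI2 and SI3, of high mitochondrial share, were nearer to COL than SI1 and SI4 were.

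**Figure D4:**
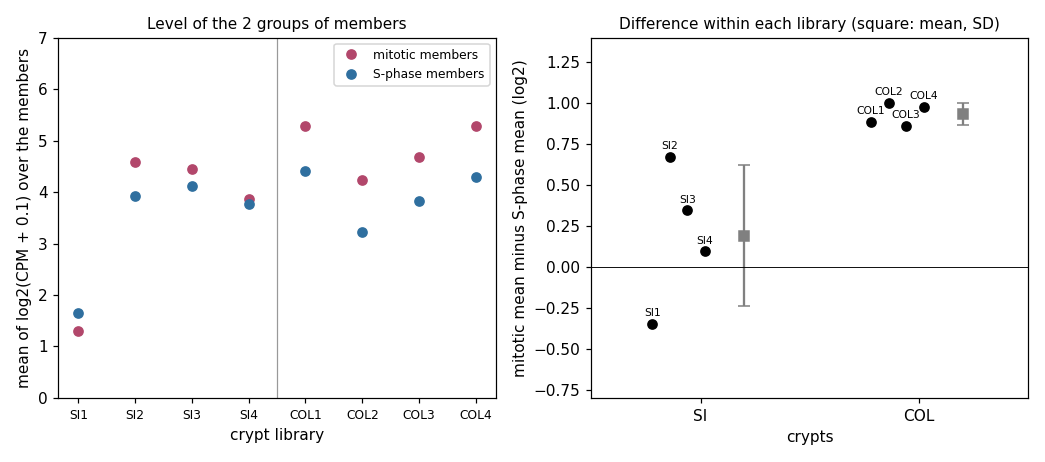
Left, mean log2(CPM + 0.1) over the 23 mitotic and the 20 S-phase members in each library. Right, the mitotic mean minus the S-phase mean in each library by tissue, with the mean and SD as a square and bar; COL libraries lie between 0.86 and 1.00 and SI libraries between -0.35 and 0.67.

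Wider lists of the pathway gave like values. Among 54 other mitotic genes, 52 had a log2 fold change below 0 with a median of -0.997, and 5 were called, all higher in COL. These were Nek2 (-1.88), a centrosome kinase, Ect2 (-1.40), which places the cleavage furrow, Cks1b (-1.48) and Cks2 (-1.43), small subunits of cyclin-dependent kinases, and Cdkn3 (-1.91), a phosphatase of such kinases. Cks2 shares 29.7% of its stretches with other transcripts, among them Gm15452. Cks1b had an adjusted p of 0.065 in edgeR with the donor mouse as replicate block and of 0.029 in limma-voom with it. Its call was also lost on leaving out any single library except SI1 or COL2. Of the 5, only Ect2 kept its call whichever library was left out. The share called, 5 of 54, was below the 12.9% of all genes called higher in COL. Without SI1 the median was -0.62, with 47 below 0.

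Among 48 other replication genes the median was -0.25, and 3 were called. Without SI1 the median was 0.05, with 21 of 48 below 0. Pole3, a subunit of polymerase epsilon that also serves in chromatin complexes, was higher in SI, at 0.85 (edgeR adjusted p = 0.033). It was not called without SI1, nor without any other single library except SI2 or COL4, nor with no filter. With libraries scaled by their totals alone its log2 fold change was 0.06. Ung, the uracil glycosylase, was higher in COL, at -1.86, with an adjusted p of 0.053 in edgeR with the donor mouse as replicate block and of 0.031 in limma-voom with it. Its call was also lost without SI2, SI4, COL1 or COL4. The mean of the other mitotic genes minus that of the other replication genes lay between -1.47 and -0.17 in SI and between 0.23 and 0.56 in COL.

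Regulators of the G1/S step had 4 calls, all higher in SI, in lists of 17 and 6 genes, where 15.5% of all genes were called higher in SI and 17.8% did not overlap with SI above. The calls in the list of 17 were no more frequent than in that background. Among 17 E2F and pocket protein genes the median was 0.31, with E2f3 (1.24), an activating E2F, and Rb1 (1.26), the retinoblastoma protein that holds E2F in check, called higher in SI. Among 6 genes of the cyclin E step the median was 0.01, with 3 above 0, and Ccne2 (1.51), cyclin E2, and Cdc25a (1.097), the phosphatase that releases Cdk2, were called higher in SI. All 4 genes were above COL in every SI library, SI1 included, where Ccne2 was at 9.51 CPM and no COL library exceeded 4.42 CPM. Of the stretches of Ccne2, 17.4% are shared with Ints8. E2f3 missed the threshold without SI1 (adjusted p = 0.061), and none of the 4 was called with libraries scaled by their totals alone, at log2 fold changes of 0.38 to 0.77. The median of all genes was -0.82 under that scaling.

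Per length, COL and SI crypts ranked the members differently at the top. Counting mean CPM per kilobase of exon, Plk1 was first in COL with 31.2, followed by Ccnb2 with 21.8 and Pcna with 15.7. In SI, Pcna was first with 16.7, then Top2a with 11.6 and Mki67 with 9.46, and Plk1 was sixth with 7.79. The spread over libraries is wide, above all in SI, so neighbours in these orders do not differ beyond it. Plk1 also stood higher relative to the other mitotic members in COL, by 1.26 ± 0.36 on the log2 scale, than in SI, 0.32 ± 0.53. Even so, SI1 at 0.99 was above COL1 at 0.77. Plk1 was the member with the largest difference between the tissues, so this order follows from that choice and is no further support.

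By mouse, the tissue difference was not uniform. The mean over mitotic members of log2(CPM + 0.1) in SI minus that in COL was -3.98, 0.36, -0.23 and -1.42 in mice 1 to 4, and over S-phase members it was -2.74, 0.69, 0.29 and -0.54. The female mice, 1 and 4, had negative values in both lists, and the males were near 0 or above. A model with tissue by sex called 0 of 14491 genes (0% of the background) and none of the members with edgeR, the only tool run for this comparison. At an unadjusted p below 0.05 were 14 of 43 members, against 5.25% of all genes, and all 43 fitted differences had the SI over COL ratio higher in males. That count ranged from 6 members without SI1 to 38 without SI4, and it was 34 with the donor mouse as replicate block. The shares of all genes in these 3 fits were 2.69%, 8.47% and 6.00%. With 2 mice per sex, and with the SI libraries of males also those of high mitochondrial share, sex and library composition cannot be told apart in SI.

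Members also varied with the mitochondrial share, and the mitotic ones with their own length. In COL, the difference between the libraries of high share (COL1, COL2) and of low share (COL3, COL4) was mostly positive for long mitotic genes and negative for short ones. Mki67, with 10061 bases of exons, was at a mean of 202 CPM in COL1 and COL2 and 93.04 CPM in COL3 and COL4. Cenpe was at 63.4 and 33.03 CPM, and Cenpf, with 15433 bases of exons, at 71.4 and 37.9 CPM. Short mitotic members ran the other way, with Ccnb2 (1531 bases) at 28.3 and 38.4 CPM and Plk1 (2199 bases) at 60.0 and 77.3 CPM. S-phase members did not follow length, with Dut (2410 bases) at 12.2 and 3.46 CPM and Rrm1 (11012 bases) at 30.5 and 47.9 CPM. Across the 23 mitotic members, Spearman's coefficient between this difference and exon length was 0.65, across the 20 S-phase members 0.02, and across all genes 0.23. These genes share the same libraries and are not independent replicates, and no p is given.

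In SI, the libraries of high share (SI2, SI3) were set against SI4 alone, since SI1 was low for other genes of the crypt base too. The same coefficient was 0.56 across mitotic members, 0.25 across S-phase members and 0.08 across all genes. Kif20b was at a mean of 47.2 CPM in SI2 and SI3 and 10.5 CPM in SI4, and Cenpe at 56.9 and 23.7 CPM. The part of gene length and of RNA quality in these values was not tested. Within the libraries of low share, SI1 and SI4 against COL3 and COL4, the median log2 fold change was -1.93 for mitotic members. Within the libraries of high share it was -0.49. Only the subset of low share holds SI1, so mitochondrial share and the low level of SI1 cannot be told apart in these 2 medians. Plk1 was called in both subsets.

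**Figure D5:**
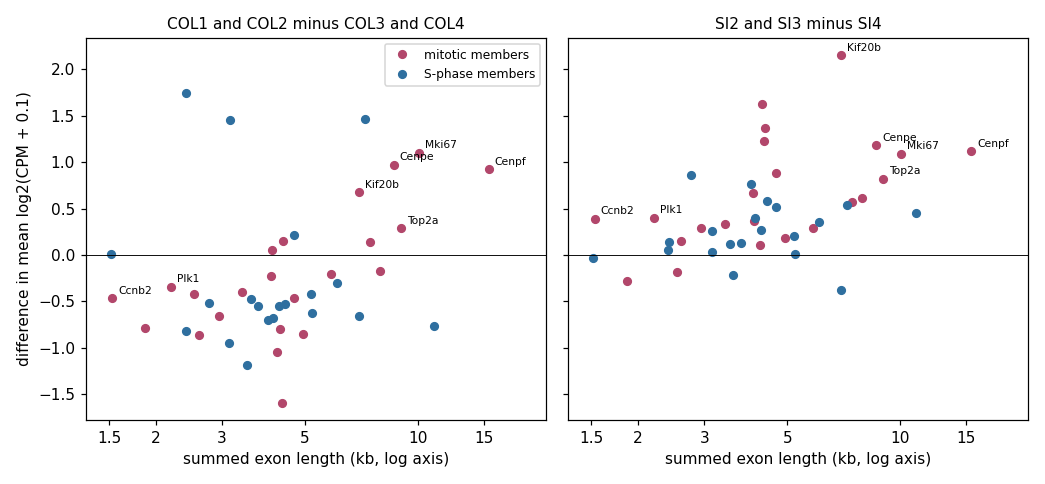
Difference in mean log2(CPM + 0.1) between libraries of high and low mitochondrial share (y axis) against the summed exon length of each member (x axis, kb, log axis), for COL on the left and SI (without SI1) on the right. Long mitotic genes such as Mki67, Cenpe and Cenpf lie above 0 in both tissues.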

How the data were processed

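The authors sequenced RNA from crypts of 4 mice, 1 SI and 1 COL library each, obtained with EDTA. Per the labels, the processing notes name Trimmomatic 0.36, STAR 2.5.2b and the builds mm9 and mm10, and the methods name mm10. The authors deposited raw counts per Ensembl gene, with no normalization. The authors compared SI with COL replicates by limma at a Benjamini-Hochberg adjusted p below 0.05. The strand setting, the annotation release, and the filter, scaling and covariates of that analysis are not given in the sources used here. Symbols, coordinates and exon lengths came from GENCODE vM21 (563 of 45706 identifiers unmatched), and promoters came from RefSeq.

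Low genes were dropped with filterByExpr by tissue (about 10 counts in 4 libraries, 15 in all) and scaled by TMM. SI was tested against COL with the quasi-likelihood test of edgeR 4.0.16 in R 4.3.3, adjusted by Benjamini-Hochberg over 14491 genes at a threshold of 0.05. CPM are counts per 1000000 of the scaled total, and means over members used log2(CPM + 0.1). DESeq2 1.42.0, limma-voom 3.58.1, other scalings and filters, a block for the donor mouse, and subsets of libraries were alternatives. The fits were tested on simulated data in which no library was set apart as SI1 is, so that test does not cover its effect. SI and COL libraries are paired by donor mouse in the labels. The deviations of the 2 libraries of 1 mouse from their tissue means correlated at -0.24, 0.39, -0.08 and 0.33 across genes. A stretch was called shared where its 50 bases occur in another gene's transcript.

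The members, role groups and pathway lists were chosen with earlier results of these data known. Values per library were printed for the member with the largest difference in each role group, each member called, and Mki67, Top2a, Mcm2 and Pcna. From each further pathway list up to 5 called genes were named, and 1 called gene of the replication list is not reported here. Kif20b was added after its value was seen, being the only mitotic member above 0. P-values measure the spread between 4 mice per tissue. Depths of 15969428 to 32908060 counts left every member above 0 in every library. Organoid experiments were not analysed here.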

Additional observations from a re-analysis of the deposited data

Results flagged for a closer look

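In 17 members, SI1 lay so far below the other 3 SI libraries that Dixon's ratio of the gap to the range, on log2(CPM + 0.1), passed its 95% critical value for 4 samples. Chance gives such a mark in about 1 in 20 groups, and 86 groups were examined. SI1 accounted for every mark, so that 39.5% of the members were marked in it, against 1.24% of all genes with SI1 as far below. The values in SI1, in CPM, were 0.453 for Ccna2, 2.04 for Ccnb1, 1.72 for Ccnb2, 2.58 for Cdk1, 1.31 for Aurkb, 3.22 for Cenpa, 0.498 for Cdc20 and 1.81 for Ube2c among the mitotic members. Among the S-phase members they were 3.44 for Mcm3, 4.71 for Mcm4, 0.634 for Cdc6, 1.90 for Cdc45, 1.22 for Gins1, 3.31 for Tyms, 0.317 for Dut, 5.66 for Tk1 and 0.317 for E2f1.

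The mean SI minus COL difference of the S-phase members was negative in both female mice and positive in both male mice. Females minus males it was -2.13 on the log2 scale, and this difference of means was not tested. Without mouse 1, whose SI library is SI1, the values are -0.54 for the female and 0.69 and 0.29 for the males.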

How the results depend on the processing

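Plk1 kept its direction and its call in all 20 alternatives. The median log2 fold change of the mitotic members ran from -1.93 (libraries of low share, SI1 among them) to -0.49 (libraries of high share). That of the S-phase members ran from -1.16 (scaling by totals) to 0.08 (libraries of high share). Both moved by less than the spread between libraries, but SI1 makes that limit wide. For mitotic members the SD within SI was 1.53 with SI1 and 0.39 over SI2 to SI4. The counts of calls also depended on the processing, and the causes were not tested. In the order of mitotic members (1 in the report), S-phase members (0), other mitotic genes (5) and other replication genes (3), scaling by total counts gave 13, 3, 29 and 13 calls, DESeq2 7, 1, 10 and 5, and no filter 12, 3, 25 and 4. limma-voom gave 6, 1, 11 and 4, and with the mouse as replicate block 5, 1, 6 and 4, while edgeR with the replicate block gave 1, 0, 4 and 2. RLE factors gave 1, 1, 6 and 3, and 10 counts in every library 2, 1, 6 and 2. Removing mitochondrial genes gave 2, 1, 6 and 2, the mitochondrial class as a term 2, 0, 7 and 5, the 4 libraries of low share 2, 1, 8 and 5, and the 4 of high share 1, 0, 0 and 1. All genes called fell from 4116 to 2264 of 15324 in the libraries of high share. They numbered 5903 of 14491 with scaling by totals, 5121 with DESeq2 and 4523 of 33110 with no filter. limma-voom called 4691, its block 4707, edgeR with the block 4072 and RLE factors 4170. The filter of 10 counts called 3241 of 10765, removing mitochondrial genes 4257 of 14648, the class term 5400 and low share 5530 of 14955. Mitotic members and other mitotic genes were called in a larger share than all genes with scaling by totals and with no filter. Leaving out 1 library gave 1 to 4 mitotic and 0 to 1 S-phase members, 1 to 7 other mitotic and 1 to 4 other replication genes. Over all genes it gave 3167 to 4480 calls. The highest mitotic count came without COL2, and the lowest other mitotic counts came without COL1 or COL4. Of the genes named with values, the replicate block ended the calls of Ung and Cks1b in edgeR. In limma-voom it ended that of Kif11 (adjusted p 0.034 without the block and 0.056 with it) and brought in Ccnb1 (0.0502 and 0.028). It changed no other call among them. The tissue by sex comparison called 3 of 43 members with no filter (Bub1b, Kif20b and Tpx2), against 78 of 33110 genes in all. In the other settings it called 0 members and 0 genes. Exact permutation reached its smallest p in 4 members with an offset of 1 as with 0.1. That had to be so, since this p needs only that the tissues do not overlap, which the offset cannot change.

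A sign changed in at least 1 alternative in 20 of 43 members, none with a log2 fold change beyond 0.87. Of those named with values, scaling by totals gave -0.70 for Pcna, -0.78 for Mcm2 and -0.56 for Kif20b. The filter of 10 counts gave -0.012 for Pcna and -0.079 for Mcm2, removal of mitochondrial genes -0.0028 and -0.061, and libraries of low share -0.36 and -0.12, with -1.34 for Kif20b. Mcm2 was at -0.040 with no filter. Libraries of high share gave 0.23 for Mcm5 and 0.0058 for Top2a. Kif20b was at -0.45 with limma-voom, -0.22 with limma-voom and the replicate block, -0.23 with edgeR and the replicate block, and -0.32 with the mitochondrial class as a term. Leaving out 1 library moved Pcna between -0.11 and 0.23, Mcm2 between -0.15 and 0.34, Top2a between -0.67 and 0.023 and Kif20b between -0.31 and 0.58.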
